A study of Mus musculus with 18 samples.

Results

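The HoxC cluster on mouse chromosome 15 was examined through 6 of its genes, Hoxc4, Hoxc5, Hoxc6, Hoxc8, Hoxc9 and Hoxc10, which are the genes of paralog groups 4 to 10 in this cluster and were found by their Entrez identifiers among the 27179 genes of the count table. RNA was sequenced from 3 libraries in each of 6 groups of mouse embryonic stem cell (ESC) cultures that were differentiated into spinal motor neurons (MNs) and interneurons with 1 µM retinoic acid (RA) and 0.5 µM of the Hedgehog agonist SAG from day 0. iHoxc6, iHoxc8, iHoxc9 and iHoxc10 neurons came from isogenic lines that carry a single Flag-tagged Hox transgene at the Hprt locus (named, for example, iFlag.Hoxc6), switched on by 3 µg/ml doxycycline (Dox) from day 2 and collected 48 h later, on day 4. Control neurons were the iHoxc6 line on day 4 without Dox, so they carry an uninduced Hoxc6 transgene. Day 2 progenitors came from a line labeled iCre and were collected before any Dox. Each transgene was studied in 1 line, and Dox was given to all induced groups and to neither of the others, so effects of Dox cannot be told apart from those of the transgene. The counts do not separate a transgene from its endogenous gene: the level of the induced gene in its own line is the sum of both wherever it is given below, and it checks the label.

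Hox genes encode homeodomain transcription factors that give cells their position along the body axis. They are switched on in the order in which they lie in the cluster, and RA applied to differentiating ESCs opens the anterior part of the clusters, which leaves the cells with a cervical identity. In the spinal cord, Hoxc4 and Hoxc5 belong to cervical levels, Hoxc6 and Hoxc8 to brachial, Hoxc9 to thoracic and Hoxc10 to lumbar levels, and Hox proteins repress one another's genes at the borders between these levels. The question asked here is how the endogenous genes of the cluster respond to each of the 4 induced members.

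The members are distinguished in the data by reads across their whole transcripts. All of them hold a homeobox, the part that encodes the DNA-binding homeodomain. The homeoboxes of the 4 induced genes are printed here from GENCODE M21 transcripts of GRCm38, because they show how close in sequence the genes induced here are to each other. Each holds 60 codons, and capitals mark the 80 of 180 bases that are the same in all 4 at that position.
Hoxc6 (chr15:103010754-103010933, plus strand): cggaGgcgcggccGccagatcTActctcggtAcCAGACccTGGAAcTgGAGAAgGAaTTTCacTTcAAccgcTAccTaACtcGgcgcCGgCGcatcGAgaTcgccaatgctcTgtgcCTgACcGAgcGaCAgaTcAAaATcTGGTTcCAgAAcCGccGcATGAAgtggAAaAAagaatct
Hoxc8 (chr15:102992571-102992750, plus strand): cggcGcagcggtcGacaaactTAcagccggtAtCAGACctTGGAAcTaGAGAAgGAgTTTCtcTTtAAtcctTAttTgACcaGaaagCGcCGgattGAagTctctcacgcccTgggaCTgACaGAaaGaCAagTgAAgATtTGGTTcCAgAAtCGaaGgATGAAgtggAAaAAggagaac
Hoxc9 (chr15:102983930-102984109, plus strand): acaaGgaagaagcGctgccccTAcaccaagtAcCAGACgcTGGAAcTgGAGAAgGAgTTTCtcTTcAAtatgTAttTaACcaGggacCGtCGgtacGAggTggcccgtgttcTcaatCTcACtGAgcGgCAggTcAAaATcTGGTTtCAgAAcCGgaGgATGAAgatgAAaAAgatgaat
Hoxc10 (chr15:102970848-102971027, plus strand): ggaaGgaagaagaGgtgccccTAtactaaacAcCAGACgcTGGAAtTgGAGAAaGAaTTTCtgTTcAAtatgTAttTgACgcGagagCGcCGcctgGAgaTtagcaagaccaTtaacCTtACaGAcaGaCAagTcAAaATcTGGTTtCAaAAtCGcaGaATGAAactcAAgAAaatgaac
Hoxc9 and Hoxc10 had 71.7% of homeobox bases in common, the highest value of the 6 pairs, and the lowest value, 59.4%, was that of Hoxc6 and Hoxc10. The longest exact run shared by Hoxc9 and Hoxc10 was 17 bases, shorter than the reads of 75 bases. Of all 75-base windows in the transcripts, 0 of 2331 in Hoxc6, 0 of 2566 in Hoxc4 and 0 of 2757 in Hoxc8 also occurred in a transcript of another gene, and 7 of 2353 in Hoxc9 did, in Gm29455. For Hoxc5 and Hoxc10, 94 windows were shared (3.12% of Hoxc5 and 5.12% of Hoxc10), from a 166-base exon that GENCODE gives to both. In the RefSeq annotation used for counting, Mir615 lies within Hoxc5, Gm30528 overlaps Hoxc4 and Gm36878 overlaps Hoxc9, so reads of these parts are uncertain.

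Total counts ranged from 24498630 to 33168533 per library. Levels are TMM-scaled CPM, read counts brought to a common sequencing depth, and their mean is followed by the SD over 3 libraries. At this depth 3 counts correspond to 0.0883 to 0.122 CPM, which allows for counting error and nothing else. The quasi-likelihood test of edgeR was applied to all 18 libraries and 20944 genes together, and a gene was called at a Benjamini-Hochberg adjusted p under 0.01. Whether the libraries of 2 groups overlap is given as a description only. The share of all genes without overlap is not given. The libraries came from 4 sequencing runs. iHoxc6 and control shared a run, as did iHoxc9 and iHoxc10. For the other pairs of groups, the induced gene, its line and the sequencing run cannot be told apart. In pairs with day 2 progenitors, the day cannot be told apart from line and run either. The day 4 cultures had summed MN markers (8 genes) of 314.3 to 712.5 CPM against 20.7 to 47.5 CPM on day 2, and summed neuron markers (6 genes) of 4675 to 6846.8 CPM against 255.3 to 512.6 CPM. Summed pluripotency markers were at most 1.5 CPM and mesoderm markers at most 3.03 CPM on day 4. Endoderm markers (5 genes) were 13.5 to 58.2 CPM on day 4 against 28.6 to 74.2 CPM on day 2. Most of the day 4 sum was Foxa2, with group means of 16.8 to 43.9 CPM, and each of the others was at most 2.15 CPM. By edgeR, 3 of the 4 endoderm markers tested were called lower in control than on day 2. Glia markers (5 genes) were 80.2 to 157.8 against 19.5 to 27.6 CPM. Spinal progenitor markers (7 genes) were 296.5 to 633.5 CPM on day 4 and 504 to 544.5 CPM on day 2, so the ranges of the sums overlapped. Single genes moved apart. By edgeR, 3 were called lower and 1 higher in control than on day 2, where 42.4% of all genes were called. Mean Pax6 was 100.6 CPM on day 2 and 8.67 CPM in control. Nes, the largest part of the sum, was 159.6 and 237.4 CPM.

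The 4 induced members were each high in their own line. Hoxc6 was 532, 499.9 and 511.5 CPM in the 3 iHoxc6 libraries, Hoxc8 was 397.5, 409.9 and 361 CPM in iHoxc8, Hoxc9 was 223.9, 235.8 and 213.3 CPM in iHoxc9, and Hoxc10 was 432.1, 425.3 and 433 CPM in iHoxc10. All 12 libraries therefore carried the gene their label names. Per kilobase of the annotated exons of the endogenous gene, Hoxc10 was 225.3 ± 2.21, Hoxc6 213.6 ± 6.74, Hoxc8 137.5 ± 8.98 and Hoxc9 92.3 ± 4.62 CPM per kb in their own lines. Endogenous Hoxc4 and Hoxc5 in control stood at 58.6 ± 3.49 and 63.3 ± 2.36 CPM per kb. The length of the transgene RNA was not taken into account. The values per kilobase therefore do not rank the induced genes or set them against Hoxc4 and Hoxc5. The induced gene held 62.1% to 63.9% of all counts of the 6 members in iHoxc6, 62.7% to 64.6% in iHoxc8, 57.5% to 60.6% in iHoxc10 and 85.9% to 88.6% in iHoxc9, where the induced gene had the lowest CPM of the 4.

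**Figure D1:**
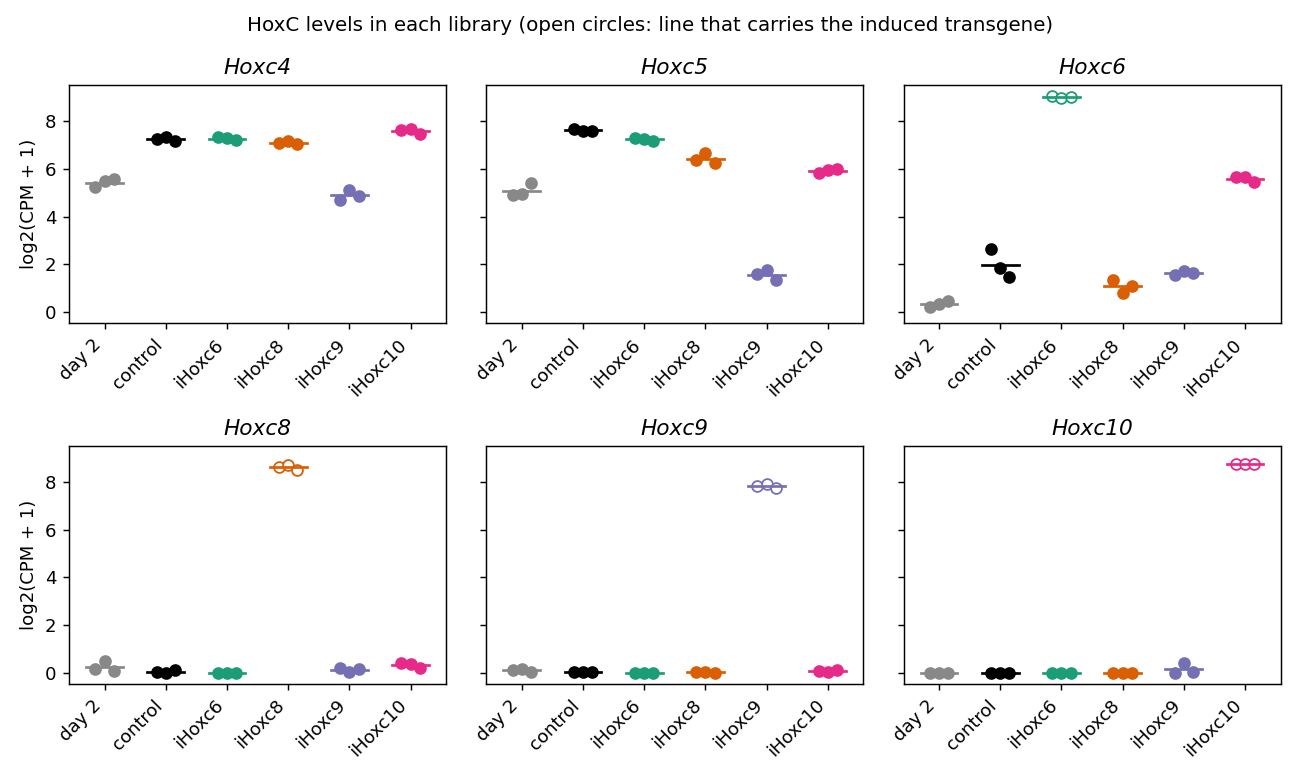
Level of each HoxC member in each library as log2(CPM + 1), by group; points are libraries, bars are means and open circles mark the line that carries the induced transgene. Hoxc4 and Hoxc5 were expressed in all groups except for the low Hoxc5 level of iHoxc9 (1.51 to 2.38 CPM), Hoxc6 was high outside its own line only in iHoxc10 (43.1 to 49.4 CPM), and Hoxc8, Hoxc9 and Hoxc10 stayed below 0.4 CPM outside their own lines.

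Before any transgene was induced, the cluster was already read out from its anterior end, and more so in control on day 4. Day 2 progenitors and control also differ in line and sequencing run, which cannot be told apart from the day. Hoxc4 was 36.9, 43.3 and 46 CPM in the day 2 libraries and 150.6, 159.3 and 141.4 CPM in control. Hoxc5 was 28.9, 30.2 and 41.1 CPM on day 2 and 204.1, 191.5 and 191.3 CPM in control. Hoxc6 was 0.168, 0.266 and 0.375 CPM on day 2 and 5.17, 2.58 and 1.8 CPM in control. The groups did not overlap for any of these 3 genes. They were the 3 members of 6 called between control and day 2 progenitors, all higher in control, in a comparison that called 42.4% of all genes tested. The log2 fold changes were 1.84 for Hoxc4 (SE, standard error, 0.13), 2.55 for Hoxc5 (0.16) and 3.54 for Hoxc6 (0.37), with adjusted p = 8.42e-11, 5.91e-12 and 3.19e-08 by edgeR. The Hoxc6 reads of control may come from the endogenous gene or from the uninduced transgene, which the counts cannot tell apart. Lines without that transgene give a measure of the endogenous gene, and Hoxc6 was also higher in iHoxc8 (2.08, SE 0.41, edgeR adjusted p = 0.000174) and in iHoxc9 (2.96, SE 0.39, edgeR adjusted p = 7.41e-07) than in day 2 progenitors. Those comparisons called 44.6% and 46.7% of all genes, and day 2 differs from these lines in line, run, day, Dox and the induced Hox gene. Hoxc8, Hoxc9 and Hoxc10 were at 4 counts or fewer in all day 2 and control libraries, apart from 12 counts of Hoxc8 in the second day 2 library. In bulk RNA, fewer cells expressing a gene and less RNA per cell cannot be told apart, here or below.

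Hoxc5 was the member that moved in the most induced lines, lower than control by edgeR in iHoxc8, iHoxc9 and iHoxc10. It was 204.1, 191.5 and 191.3 CPM in control, 156.3, 149.7 and 143.7 CPM in iHoxc6, 81.5, 100.2 and 75.1 CPM in iHoxc8, 55.1, 60.7 and 62.6 CPM in iHoxc10 and 1.99, 2.38 and 1.51 CPM in iHoxc9. None of these 5 groups overlapped with another. In iHoxc9, where counts per library were 51, 81 and 38 against 4974 to 6352 in control, Hoxc5 fell by 6.62 on the log2 scale, or 98.5-fold (SE 0.20, edgeR adjusted p = 2.75e-16). It fell by 1.72 in iHoxc10 (SE 0.15, edgeR adjusted p = 6.12e-08) and by 1.19 in iHoxc8 (SE 0.15, edgeR adjusted p = 6.66e-05). In iHoxc6, which shared a run with control, the log2 fold change was -0.38 and did not pass (SE 0.15, edgeR adjusted p = 0.141, with alternative settings between 0.0487 and 0.359).

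Among neighbors in this order of Hoxc5 levels, control and iHoxc6 were not shown to differ, and iHoxc6 and iHoxc8 differed by -0.81 (SE 0.15, edgeR adjusted p = 0.00206). That comparison called 3.55% of all genes. The call is narrow: the adjusted p rose to between 0.0101 and 0.0244 in the fits without iHoxc6 replicate 1, iHoxc6 replicate 2, iHoxc8 replicate 1 or iHoxc8 replicate 3. iHoxc10 was lower than iHoxc8 by 0.52 without passing (SE 0.15, edgeR adjusted p = 0.0378), in a comparison that called 2.93% of all genes. Day 2 progenitors followed, below iHoxc10 (0.83 higher in iHoxc10, SE 0.15, edgeR adjusted p = 5.16e-05, 50.2% of all genes called). iHoxc9 stood last, with a log2 fold change of -4.07 from day 2 (SE 0.18, edgeR adjusted p = 2.46e-14). Hoxc5 in iHoxc9 was thus 16.8-fold below the day 2 level, whereas in iHoxc8 it was above that level by 1.36 (SE 0.15, edgeR adjusted p = 8.69e-08).

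Hoxc4, the anterior neighbor of Hoxc5 and the last Hox gene of the cluster on that side, changed in fewer lines. It was 159.2, 155.4 and 144.7 CPM in iHoxc6, 134.5, 142.7 and 131.8 CPM in iHoxc8, 198.9, 203.6 and 176.1 CPM in iHoxc10 and 24.7, 33.7 and 28 CPM in iHoxc9. The iHoxc6 and iHoxc8 libraries overlapped with control, the iHoxc10 libraries lay above it and the iHoxc9 libraries lay below both control and day 2. Against control, Hoxc4 fell by 2.38 in iHoxc9 (SE 0.14, edgeR adjusted p = 2.71e-11), a 5.22-fold lower level. Against day 2 progenitors it was 0.55 lower (SE 0.13, edgeR adjusted p = 0.00105), which rose to an adjusted p of 0.0137 without iHoxc9 replicate 1. The log2 fold changes in iHoxc6 (0.03, SE 0.13, edgeR adjusted p = 0.991) and iHoxc8 (-0.14, SE 0.13, edgeR adjusted p = 0.561) did not pass. Under DESeq2 size factors the first of these values turned to -0.02. In iHoxc10 the value was 0.36 (SE 0.13, edgeR adjusted p = 0.046), which did not pass with edgeR and passed with DESeq2's Wald test (adjusted p = 0.00724). In the order of Hoxc4 levels, iHoxc10, iHoxc6, control and iHoxc8 were not shown to differ from their neighbors by edgeR, while iHoxc10 exceeded iHoxc6 by 0.39 with DESeq2's Wald test (adjusted p = 0.00573). iHoxc10 and iHoxc8, the ends of that row, differed by 0.50 (SE 0.13, edgeR adjusted p = 0.0203; 0.00015 with DESeq2). iHoxc8 stood 1.70 above day 2 progenitors (SE 0.13, edgeR adjusted p = 2.54e-10), and iHoxc9 was lowest.

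**Figure D2:**
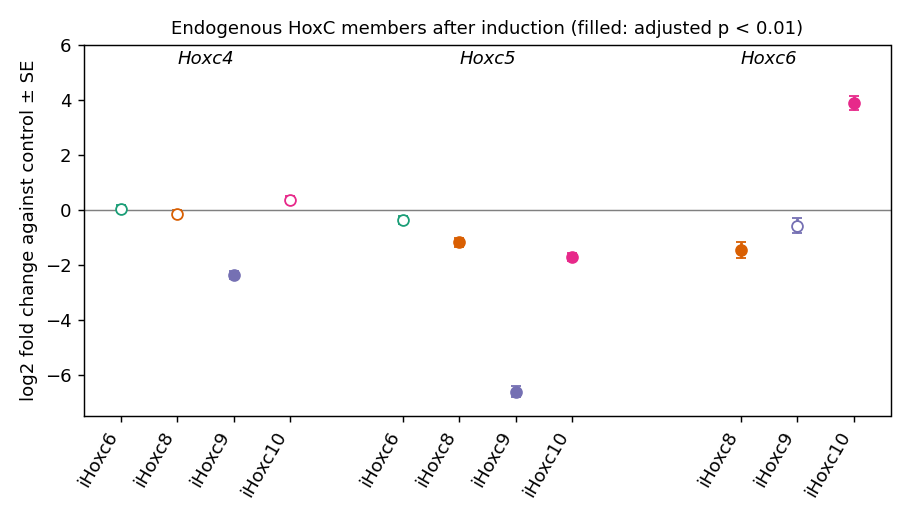
Log2 fold change of Hoxc4, Hoxc5 and Hoxc6 against control neurons in each induced line, ± standard error from edgeR, with filled points at an adjusted p under 0.01; Hoxc6 in iHoxc6 is left out because its count includes the transgene. Hoxc5 was below 0 in all 4 lines (-0.38 to -6.62, the value in iHoxc6 not passing), Hoxc4 fell in iHoxc9 alone (-2.38), and Hoxc6 was higher in iHoxc10 (3.88).

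Because both genes are measured in the same library, their ratio hardly depends on how libraries are scaled. With a pseudocount of 1 CPM, which lowers the ratio where Hoxc5 is low, the log2 ratio of Hoxc4 to Hoxc5 was -0.44, -0.26 and -0.43 in control, 0.03, 0.05 and 0.01 in iHoxc6, 0.72, 0.51 and 0.80 in iHoxc8, 1.83, 1.73 and 1.48 in iHoxc10 and 3.10, 3.36 and 3.53 in iHoxc9. The 3 libraries of each induced line lay above the 3 control libraries, and the day 2 libraries (0.34, 0.50 and 0.16) did so too. The mean differences from control were 0.41 for iHoxc6, 1.05 for iHoxc8, 2.06 for iHoxc10, 3.71 for iHoxc9 and 0.71 for day 2. Each of these 5 two-sided exact permutation tests gave p = 0.10, also after adjustment, which is the smallest value that 3 libraries against 3 allow in this test, so it cannot reach 0.05.

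**Figure D3:**
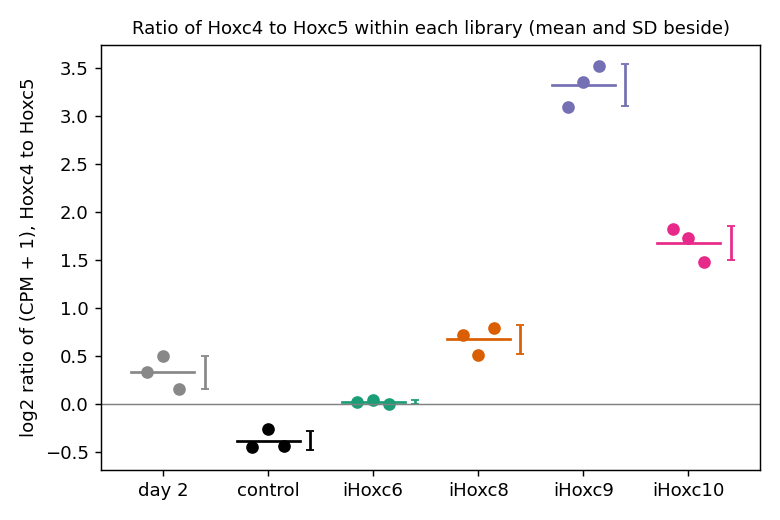
Log2 ratio of Hoxc4 to Hoxc5 (each as CPM + 1) in each library, by group; points are libraries, horizontal bars are means and the error bars beside them SDs. All 3 libraries of each induced line lie above the control libraries (-0.44 to -0.26), with iHoxc9 highest (3.10 to 3.53).

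Hoxc6 rose in iHoxc10 neurons, the only case in which a member other than the induced gene was called higher than in control by edgeR. It was 49.4, 49.4 and 43.1 CPM in iHoxc10 (1410, 1379 and 1065 counts), against 5.17, 2.58 and 1.8 CPM in control (161, 67 and 48 counts), and the groups were far from overlapping. The log2 fold change was 3.88, or 14.7-fold (SE 0.26, edgeR adjusted p = 8.43e-10). Since control carries a Hoxc6 transgene and the iHoxc10 line does not, the lines with other transgenes were compared too. Each of those lines expresses another induced Hox gene under Dox, so none is an uninduced baseline. Hoxc6 was 1.57, 0.735 and 1.16 CPM in iHoxc8 and 1.96, 2.33 and 2.15 CPM in iHoxc9. iHoxc10 exceeded iHoxc8 by 5.34 (SE 0.29, edgeR adjusted p = 2.89e-11) and, within the run they shared, exceeded iHoxc9 by 4.46 (SE 0.27, edgeR adjusted p = 1.44e-10). Hoxc6 was 6.03% to 6.71% of the member counts in iHoxc10, and it stood 3.44 on the log2 scale, or 10.9-fold, below the level of the iHoxc6 line, where the transgene is counted. Per kilobase, the endogenous genes of iHoxc10 were in the order Hoxc4 (75.1 ± 5.73), Hoxc6 (19.6 ± 1.5) and Hoxc5 (19.3 ± 1.26 CPM per kb), the last pair within their SDs. As stated above, annotated Hoxc6 transcripts share no exact 75-base window with Hoxc10. Whether reads of the Hoxc10 transgene were assigned to Hoxc6 was not tested.

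Hoxc6 did not change in the same way in the other lines. In iHoxc9 its log2 fold change from control was -0.58 (SE 0.27, edgeR adjusted p = 0.135), and the libraries overlapped. In iHoxc8 it was lower by 1.47 (SE 0.29, edgeR adjusted p = 0.00458), but this call was narrow. Without control replicate 1 (161 counts, against 67 and 48) the value was -0.91 and did not pass (edgeR adjusted p = 0.0327). It was -1.24 without iHoxc8 replicate 2, -1.51 without iHoxc8 replicate 3 and -1.52 with only those groups in the fit, and also did not pass (edgeR adjusted p = 0.0145, 0.0221 and 0.0278). iHoxc9 and iHoxc8 were not shown to differ in Hoxc6 (0.89, SE 0.30, edgeR adjusted p = 0.0849), in a comparison that called 5.37% of all genes, although their libraries did not overlap. The order of Hoxc6 levels outside its own line was therefore iHoxc10, then control, iHoxc9 and iHoxc8 with no neighbors shown to differ by edgeR, then day 2 progenitors.

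Hoxc8, Hoxc9 and Hoxc10 stayed far below the anterior members in lines that induced another member. Hoxc8 had 10, 8 and 4 counts in iHoxc10, 4, 1 and 3 in iHoxc9, 1, 0 and 2 in control and 0 in each iHoxc6 library. The iHoxc10 libraries lay above control, at 0.266 ± 0.0957 CPM, and the difference narrowly missed the threshold with edgeR (adjusted p = 0.0103) while it passed with DESeq2's Wald test (adjusted p = 0.00527). Against iHoxc6, where all libraries were at 0, Hoxc8 in iHoxc10 was called (edgeR adjusted p = 0.00116) and at least 2.64-fold higher, computed against 3 counts per library. Hoxc9 had 0 to 2 counts in all control, iHoxc6, iHoxc8 and iHoxc10 libraries. Hoxc10 had 0 counts in all day 2, control, iHoxc6 and iHoxc8 libraries and 0, 12 and 1 counts in iHoxc9. The 12 counts are 0.103% of the mean Hoxc10 count in iHoxc10, which was sequenced in the same run, and the part of the run in them was not tested.

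Counted over the members and leaving out the induced gene, 0 of 5 were called in iHoxc6 by edgeR against control, where 0.587% of all genes were called. At an unadjusted p under 0.05 there were 2 (Hoxc5 and Hoxc9, the latter at 1 count or fewer in every library), and DESeq2 called 0. In iHoxc8, 2 of 5 were called, both lower, against 2.12% of all genes. In iHoxc9, 2 of 5 were called, both lower, against 14.1%. In iHoxc10, 2 of 5 were called, 1 higher and 1 lower, against 14.4%. Between iHoxc9 and iHoxc10, within a run, 3 of the 4 members that neither line induces were called, all lower in iHoxc9, where 4.99% of all genes were called. These were Hoxc4 (-2.74, SE 0.14), Hoxc5 (-4.90, SE 0.19) and Hoxc6 (-4.46, SE 0.27), each with an adjusted p of at most 1.44e-10 by edgeR. Hoxc8 did not pass (-1.47, SE 0.62, edgeR adjusted p = 0.181). Between iHoxc10 and iHoxc6, where 11% of all genes were called, Hoxc5 was lower in iHoxc10 by 1.33 (SE 0.15, edgeR adjusted p = 3.08e-06). The comparisons with control share the same 3 control libraries and are given side by side for that reason. The summed MN markers moved with the line too: they were 682.3 to 712.5 CPM in control, 460.8 to 538.4 in iHoxc6, 480.5 to 534.6 in iHoxc8, 517.6 to 583.7 in iHoxc10 and 314.3 to 336 CPM in iHoxc9. Of these 8 genes, edgeR called 1, 3, 5 and 3 lower than control in iHoxc6, iHoxc8, iHoxc9 and iHoxc10, and 0 higher. Single markers did not move alike. Mean Prph was 143.5 CPM in control and 13.3 CPM in iHoxc9, while mean Isl1 was 95.5 CPM in control and 148.3 CPM in iHoxc8. Summed spinal progenitor markers (7 genes) were 296.5 to 633.5 CPM in control, 561.1 to 610.9 in iHoxc9 and 385 to 419.9 CPM in iHoxc10. Against control, edgeR called 3 of them higher and 1 lower in iHoxc9, and 1 higher and 2 lower in iHoxc10. In iHoxc10, where Hoxc6 rose, summed neuron markers were 5665.9 to 6846.8 CPM against 4675 to 5196.2 CPM in control, and summed glia markers (5 genes) were 125.5 to 157.8 against 80.4 to 101 CPM, without overlap. Of these genes, 3 of 6 neuron markers and 1 of 5 glia markers were called higher there by edgeR. The part of any of these in the levels of the members was not tested.

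Around the cluster, 10 other genes of the count table lie within 200 kb of its Hox genes, and 7 of them were tested. Hoxc11, Hoxc12 and Hoxc13, the posterior end of the cluster, never exceeded 3 counts in a library, and Hotair and Mir196a-2 had 0 counts in all 18. Mir615, whose precursor lies inside Hoxc5, had 6, 5 and 4 counts in iHoxc10 and 0 to 2 in every other library. That difference from control did not pass (edgeR adjusted p = 0.0188). On the Hoxc4 side, the nearest gene of the table, D930007P13Rik, was at 0.165 CPM or less in every group mean. Beyond it, Smug1, a uracil-DNA glycosylase, was 152.1 ± 66.4 CPM in control and 45.5 ± 4.1 CPM in iHoxc9. By edgeR Smug1 was the 1 of the 7 called between iHoxc9 and control, and DESeq2 called 2. That count is near the share of all genes called there, 14.1%. Smug1 fell by 1.74 (SE 0.24, edgeR adjusted p = 1.09e-05). It was also lower than in iHoxc10 (-1.94, SE 0.24, edgeR adjusted p = 5.78e-06), where 4.99% of all genes were called. In iHoxc6, iHoxc8 and iHoxc10 against control, 0 of the 7 were called by edgeR and 0 by DESeq2, with 1 at an unadjusted p under 0.05 in each. In these comparisons edgeR called 0.587%, 2.12% and 14.4% of all genes. From day 2 to control, Smug1 (2.50) and the flanking Calcoco1 (0.86), a coactivator and autophagy receptor, rose, and Cbx5 (-0.78), which encodes heterochromatin protein HP1 alpha, fell. That comparison called 42.4% of all genes.

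**Figure D4:**
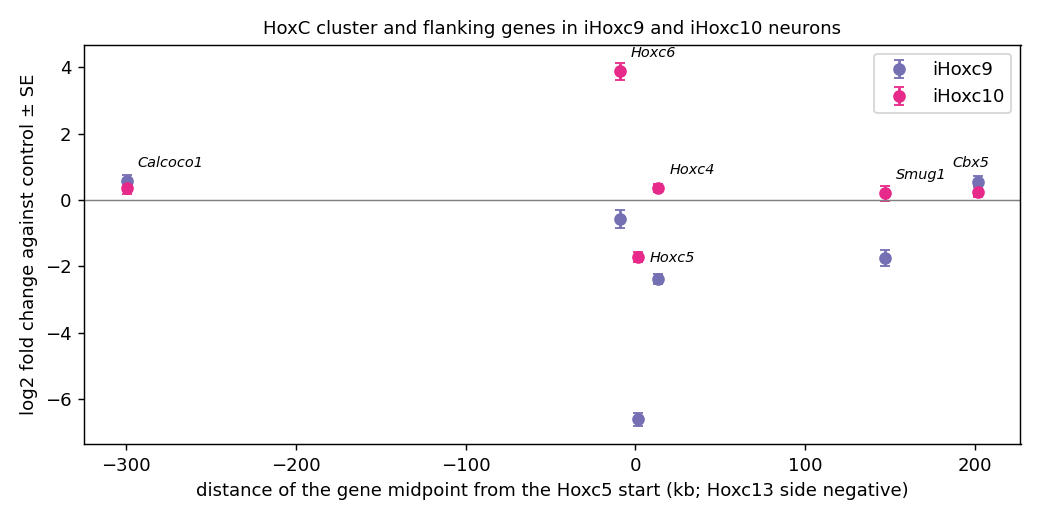
Log2 fold change against control, ± standard error, in iHoxc9 and iHoxc10 for expressed genes of the HoxC region, by the distance of each gene's midpoint from the Hoxc5 start; the Hox genes at or near 0 counts and the induced genes are left out. The fall of Hoxc5 (-6.62) and Hoxc4 (-2.38) in iHoxc9 and the higher Hoxc6 in iHoxc10 (3.88) stand within the cluster, and of the flanking genes Smug1 fell in iHoxc9 (-1.74), while Calcoco1 and Cbx5 were not called in either line.

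The paralogs of the members in the HoxA, HoxB and HoxD clusters allow the changes of HoxC genes to be read beside those of genes on other chromosomes. Of 14 such genes, 12 were tested. In the RefSeq annotation Hoxa4, Hoxa5 and Hoxa6 overlap Hoxa3, Hoxb4 overlaps Hoxb3, Hoxd4 overlaps Hoxd3, Hoxb5 and Hoxb6 overlap Hoxb5os and Hoxd8 overlaps Gm38462, so their reads are uncertain. In iHoxc9, 8 were lower than control and 1 was higher, with a median log2 fold change of -2.12 against 0.00 over all genes tested. Of all genes, 7.13% were lower and 6.95% higher there. Beside -6.62 for Hoxc5, Hoxa5 was -2.43 (SE 0.15) and Hoxb5 -2.85 (SE 0.21). Beside -2.38 for Hoxc4, Hoxa4 was -3.54, Hoxb4 -3.32 and Hoxd4 -1.80 (SE 0.15 to 0.20). The higher gene was Hoxd8 (1.79, SE 0.37, edgeR adjusted p = 0.00123), from 0.362 ± 0.0811 CPM in control to 1.26 ± 0.172 CPM. In iHoxc10, 2 paralogs were higher and 1 lower, with a median of 0.08, where 6.67% of all genes were higher and 7.75% lower. Hoxa6 was higher by 2.95 (SE 0.39, edgeR adjusted p = 1.35e-05), from 1.15 ± 0.706 to 9.05 ± 2.54 CPM, and Hoxd8 by 3.28 (SE 0.36, edgeR adjusted p = 1.02e-06), to 3.53 ± 0.591 CPM. These stand beside the 3.88 of Hoxc6, while Hoxb6, the remaining gene of paralog group 6, was -0.40 (SE 0.19, edgeR adjusted p = 0.139). Hoxb4 was lower by 1.18 (SE 0.14, edgeR adjusted p = 4.05e-06). Hoxa5 (0.18) and Hoxb5 (0.17) did not pass in iHoxc10, where Hoxc5 fell by 1.72. In iHoxc8, where edgeR called 2.12% of all genes, Hoxb9 alone was called by edgeR (-1.68, SE 0.31, adjusted p = 0.00281), and DESeq2 called 5. In iHoxc6, where edgeR called 0.587% of all genes, 0 were called by edgeR, 6 had an unadjusted p under 0.05 and DESeq2 called 3. From day 2 to control, 7 of the 12 rose, as did 21.2% of all genes. Between iHoxc9 and iHoxc10, 10 of the 12 were lower in iHoxc9, as were 2.4% of all genes.

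**Figure D5:**
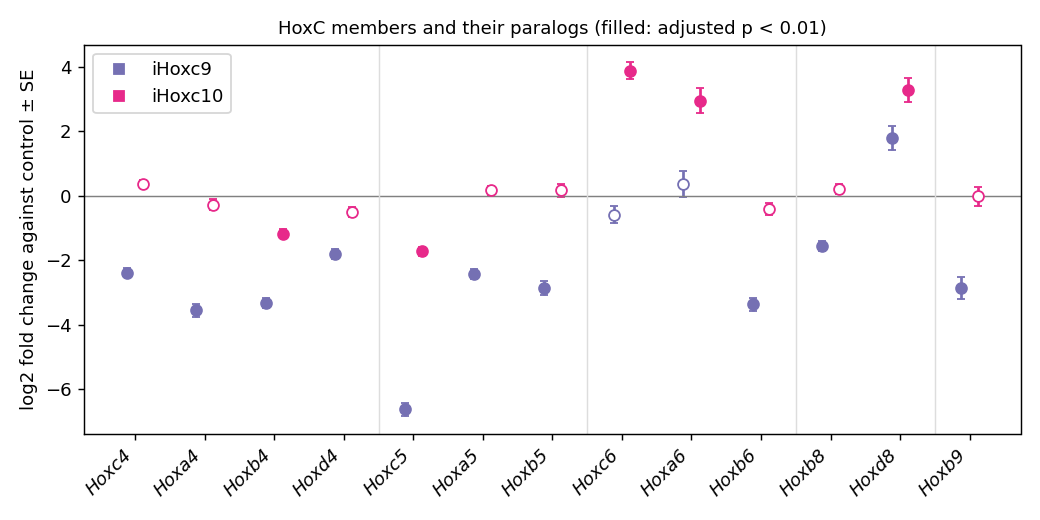
Log2 fold change against control, ± standard error, of HoxC members and their paralogs in the other clusters, in iHoxc9 and iHoxc10, grouped by paralog number; filled points passed an adjusted p under 0.01. Hoxc5 in iHoxc9 (-6.62) lies below Hoxa5 (-2.43) and Hoxb5 (-2.85), and Hoxc6 (3.88), Hoxa6 (2.95) and Hoxd8 (3.28) were higher in iHoxc10.

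A list of 21 known regulators of Hox clusters, of which 20 were tested, was read beside the shares of all genes called. In iHoxc9, where 14.1% of all genes were called, 2 were higher than control, Kdm6b (0.73), an H3K27 demethylase, and Gdf11 (0.71), a secreted signal for caudal Hox genes. In iHoxc10, against 14.4% of all genes, 4 were higher, among them Meis2 (0.81), a Hox cofactor, Kdm6b (0.73) and Zfp503 (0.66). In iHoxc6 and iHoxc8, 0 were called by edgeR, with 7 and 2 at an unadjusted p under 0.05 and 1 and 0 called by DESeq2. Between iHoxc9 and iHoxc10, against 4.99% of all genes, 3 were lower in iHoxc9, among them the RA receptor gene Rarg (-0.91) and the cofactor gene Meis1 (-0.63). From day 2 to control, 8 rose and 7 fell, against 42.4% of all genes called.

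Genes whose group means followed those of a member most closely were sought by the root mean square (RMS) difference of centered log2(CPM + 1) means, a description over 6 groups, or 5 groups without its own line for Hoxc6, that share libraries and runs. For Hoxc4 these were Hoxa5 (RMS 0.14), Hoxb5 (0.16) and Ptpru (0.26). For Hoxc5 they were more distant, with Bhlhe23 (0.96) and Hoxb6 (0.99) the nearest. Its neighbor Hoxc4 was at 1.24 from Hoxc5. For Hoxc6 they were Rpp25 (0.78), Draxin (0.81) and Fam135b (0.86), and all of these were highest in iHoxc10 among the groups compared. Ranking by Pearson's r over the libraries instead kept 2, 0 and 1 of the 3 genes for Hoxc4, Hoxc5 and Hoxc6.

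The RefSeq promoter of Hoxc4 (GRCm38.p6), the 1 of the 6 members matched, is shown because RA was present in all groups and Hoxc4 fell in iHoxc9. It covers 250 bases before to 50 after the annotated start, chr15:103034145-103034444 on the plus strand, within the longer RefSeq span of Hoxc4, and capitals mark the match described next.
Hoxc4: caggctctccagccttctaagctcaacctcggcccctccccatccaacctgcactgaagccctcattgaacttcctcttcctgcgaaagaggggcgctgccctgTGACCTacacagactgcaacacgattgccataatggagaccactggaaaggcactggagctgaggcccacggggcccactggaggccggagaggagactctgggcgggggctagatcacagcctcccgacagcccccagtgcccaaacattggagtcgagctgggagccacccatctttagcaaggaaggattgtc
AGGTCA, the half-site of nuclear receptors such as RA receptors, was found 1 time on either strand, on the minus strand as printed in capitals, and occurs in 16.3% of 32851 promoters of the same length. TTTAT, the core bound by posterior Hox proteins, had 0 matches on either strand against 40% of promoters, and the longer TGATTTAT for Hox with a cofactor had 0 against 0.977%. TTTAT matches include those of TGATTTAT. A match is only a run of letters, and its absence in this window says nothing of binding elsewhere.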

How the data were processed

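RNA-seq was analysed for 18 libraries of 6 groups. The other assays of the study were not analysed here. The authors prepared stranded poly(A) libraries, aligned reads with STAR (2.7.0c), counted them with featureCounts (Rsubread 1.30.9) on mm10 RefSeq genes, and deposited unnormalized read counts per Entrez identifier, with replicates kept apart. The strand setting of the counting is not given in the sources used here. Replicates were independent differentiations. Of 27179 identifiers, 25275 matched a symbol in the RefSeq table of GRCm38, the assembly that mm10 names.

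Counts were tested in R 4.3.3 with edgeR 4.0.16 (TMM, quasi-likelihood, group as the only term) on 20944 genes, those that had a count in 1 or more iHox libraries. All 15 pairs of groups were fitted, and 13 are used here. Standard errors were derived from the F statistic. The members, the lists and the tests were chosen with earlier results of these data known. All 6 members are named, together with the nearest flanking genes and the called flanking genes of largest change, the paralogs, at most 3 called regulators per comparison, and the 3 genes nearest in profile (mean of at least 1 CPM in some group). Mir615, Hotair and Mir196a-2, and Hoxc11 to Hoxc13, were added after their values were seen. Marker lists of 5 to 8 genes were summed. Some items that the naming rule selects are not reported here. Homeoboxes came from GENCODE M21 transcripts and the promoter from RefSeq. Alternatives were DESeq2 1.42.0 (Wald test, and its size factors within edgeR), at least 10 counts in at least 3 libraries, no filter, only the groups compared, a log2 fold change above 2, the replicate block, a pseudocount of 0.1 in place of 1, and each library left out.

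Replicate numbers come from the labels. Deviations of same-numbered libraries correlated above 0.1 in all 3 pairs for iHoxc9 with iHoxc10 (0.579, 0.474 and 0.651), for iHoxc8 with iHoxc6 (0.287, 0.63 and 0.61) and for iHoxc9 with iHoxc6 (0.142, 0.215 and 0.117, a pair not used here), and in no comparison with control or day 2. The values given are those without the replicate block. Replicate pairs differed beyond sampling noise (chi-square per degree of freedom 7.14 to 251). The code was tested on simulated data.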

Additional observations from a re-analysis of the deposited data

Results flagged for a closer look

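The same endogenous members differed between the iHoxc9 and iHoxc10 lines, and the difference itself was tested within the run that both shared. The induced gene and its line cannot be told apart in this comparison. In iHoxc9 minus iHoxc10, the log2 difference was -2.74 for Hoxc4, -4.90 for Hoxc5 and -4.46 for Hoxc6. That comparison called 4.99% of all genes. As a description, all 3 libraries of iHoxc9 lay below all 3 of iHoxc10 for each of these genes. Against control, Hoxc5 was lower in both lines (-6.62 and -1.72), Hoxc4 was lower in iHoxc9 (-2.38) and did not pass in iHoxc10 (0.36), and Hoxc6 did not pass in iHoxc9 (-0.58) and was higher in iHoxc10 (3.88). The counted level of the induced gene, transgene and endogenous RNA together, was 92.3 CPM per kb of endogenous exon for Hoxc9 and 225.3 for Hoxc10. The length of the transgene RNA was not taken into account. The part of the induced level in these differences was not tested. Groups of 3 libraries were not tested for outliers.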

How the results depend on the processing

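Of the members' log2 fold changes under all settings together, 769 kept their direction and their side of the threshold, 10 fell behind it, 11 newly passed it and 2 reversed. Both reversals were Hoxc4 in iHoxc6 against control, -0.02 with DESeq2's size factors and -0.02 with its Wald test, around a value of 0.03. The number of members called in iHoxc8 was 1 with only the groups compared, 0 with a log2 fold change above 2 as well, and 1 to 2 with a library left out. In iHoxc10 it was 4 with DESeq2's Wald test, where Hoxc4 and Hoxc8 also passed, and 1 with a log2 fold change above 2. The numbers for iHoxc6, iHoxc9, control against day 2 and iHoxc9 against iHoxc10 stayed within 1.5 times of the values given. With a replicate block in the fit, the members called remained 0, 2, 2 and 2 in iHoxc6, iHoxc8, iHoxc9 and iHoxc10, 3 in control against day 2 and 3 in iHoxc9 against iHoxc10, and no call of a member changed. The log2 ratio of Hoxc4 to Hoxc5 in iHoxc9 exceeded that of control by 4.20 with a pseudocount of 0.1 in place of 1. Depth limits Hoxc8, Hoxc9 and Hoxc10 outside their own lines, where single counts decide a value, and 3 libraries per group keep exact tests at 0.10 or above. Against control, effects of the transgene, Dox, the line and the run cannot be told apart, except that iHoxc6 and control shared a run and a line.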
